A study of Homo sapiens with 6 samples.

Results

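The genes described here are the 5 NF-kB subunits (NFKB1, NFKB2, REL, RELA and RELB), the 3 cytoplasmic IkB inhibitors (NFKBIA, NFKBIB and NFKBIE) and 2 nuclear members of the IkB family (NFKBIZ and BCL3). They were taken by gene symbol from a table of 58735 genes, and all 10 were found and passed the low-count filter, as did 16322 genes in all. The cells are LN229, an established human glioblastoma line. One group carries the genotype label HSD52 overexpression, called HSD52_OE here, where HSD52 is a gene listed in the deposited table as a processed transcript, a class without a known coding sequence. The other is labelled WT and is called control, and each group has 3 RNA sequencing libraries. The sources used here do not give the vector, whether the overexpressing cells are 1 clone or a pool, or whether replicates are separate cultures, so a p-value here covers only library-to-library spread, which could be technical.

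NF-kB is a dimeric transcription factor. In resting cells the IkB proteins hold the dimers in the cytoplasm, and signals from TNF, interleukin-1 and Toll-like receptors activate the IKK kinases, which mark IkB for destruction and free the dimers to enter the nucleus. NFKB1 and RELA make up the main dimer of this canonical route, while NFKB2 and RELB form the dimer of the slower alternative route. NFKBIA, NFKB2, RELB and several other genes of the system are themselves classical NF-kB targets, so their transcripts are often read beside the activity of the pathway. In glioblastoma, NF-kB is known for its link to the mesenchymal state and to inflammatory signalling.

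HSD52, the overexpressed gene, had 7 to 12 counts per control library and 1252 to 1336 per HSD52_OE library, which follows the labels. Library totals lay between 17777157 and 18917790 counts, and 1 CPM (1 of 1000000 counts) stood for 17.1 to 19.7 counts after TMM scaling, which corrects for differences in library make-up. Genes with any count numbered 22855 to 23545 in control and 26359 to 26755 in HSD52_OE libraries. The TMM factors were 0.94 to 0.99 in control and 1.04 to 1.05 in HSD52_OE libraries. This difference in make-up follows the groups and cannot be told apart from them. No pair of libraries of a group agreed within sampling noise (chi-square per degree of freedom of at least 15.1 within the control group and 2.23 within HSD52_OE). Of 7 glioma line markers all were detected, led by VIM, and they summed to 2882 to 3225 CPM in control and 2760 to 2818 CPM in HSD52_OE libraries, although GFAP was low (4.83 ± 1.46 and 7.29 ± 1.09 CPM). The 7 macrophage and microglia markers summed to at most 3.05 CPM and the 6 lymphocyte markers to at most 0.323 CPM in any library, and AIF1, CD3E and CD2 had no count. The 4 endothelial markers summed to at most 2.33 CPM. The 4 neuron markers summed to 28.5 to 33.9 CPM in control and 23.1 to 24.9 CPM in HSD52_OE libraries, with SNAP25 and SYT1 detected and STMN2 at 0. In bulk RNA, fewer cells that express a gene and less RNA per cell cannot be told apart.

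Of the 10 NF-kB subunit and inhibitor transcripts 8 were lower in the HSD52_OE cells. BCL3 fell 4.01-fold, RELB 2.42-fold and NFKB2 2.29-fold, NFKBIA and NFKBIE fell 1.91-fold and 1.77-fold, and NFKBIZ, NFKB1 and RELA fell 1.63-fold, 1.62-fold and 1.48-fold. REL and NFKBIB did not pass the test. With a threshold of 0.05 on Benjamini-Hochberg adjusted p-values of edgeR's quasi-likelihood test, adjusted over all 16322 genes, 8 of the 10 genes were called lower and 0 higher, where 25.6% of all genes tested were called lower and 25.0% higher. At an unadjusted p under 0.05 the counts were 10 lower and 0 higher, and DESeq2 and limma-voom also called 8 lower and 0 higher. The median log2 fold change was -0.77 over the 10 genes and 0.01 over all genes tested. Among the 10789 genes whose mean level was at least that of REL, the lowest of the 10, 33.3% were called lower and 19.5% higher, with a median of -0.09. The groups did not overlap for 9 of the 10 genes, all lower in HSD52_OE, against 29.3% of all genes tested. At a fold of at least 2, the 3 genes BCL3, RELB and NFKB2 were called lower, against 3.49% of all genes. Scaling by library totals alone moved the median of all genes from 0.01 to 0.13 and the share of calls that were higher from 49.5% to 64.5%, and 8 of the 10 genes were still called lower.

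**Figure D1:**
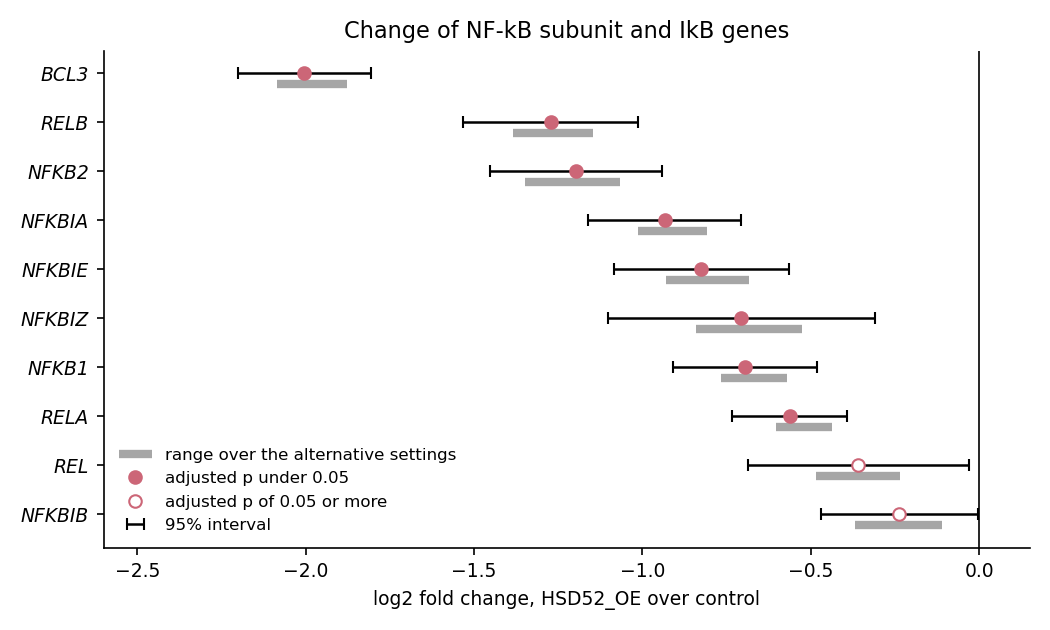
Log2 fold change of each gene, HSD52_OE over control (horizontal axis), with the 95% interval of the edgeR fit as a black bar and the range of the estimate over 15 alternative settings as a grey bar; filled points had an adjusted p under 0.05 and open points did not. BCL3 stands farthest from 0 at -2.004, and the intervals of REL and NFKBIB end close to 0.

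Promoter sequences are shown because 7 of the 8 genes with a RefSeq entry carry a match to the kappaB consensus, the DNA site that NF-kB dimers bind. The windows run from 250 bases before to 50 bases after a RefSeq start on GRCh38.p14, which shares its chromosome coordinates with hg38, and 14 windows were found for the 8 genes. RELB and NFKBIE had no entry. The consensus was searched on both strands as a run of 10 bases, and overlapping matches were counted as separate. A match was present in 9 of the 14 windows, against 11.3% of all 35116 windows and 18.7% of the 8564 windows that were at least as rich in G and C as the median window of these genes. By gene, 7 of 8 had a match in at least 1 window, against 13.3% of all genes in the promoter table. The share was 17.3% of the genes tested and 20.2% of the genes with windows that rich in G and C. A gene with more windows has more places for a match, and these 8 had 14 windows, against 35116 for 27305 genes in all. Among 25 of the kappaB target genes listed later, 14 had a match.

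The first 3 windows below belong to the nuclear IkB gene BCL3 (chr19:44748458-44748757, plus strand), to NFKB2 at the second of its 3 starts (chr10:102394328-102394627, plus strand) and to NFKBIA (chr14:35404700-35404999, minus strand). These are the genes with the strongest fall in each class for which a promoter was given, and capitals mark the kappaB matches.
BCL3: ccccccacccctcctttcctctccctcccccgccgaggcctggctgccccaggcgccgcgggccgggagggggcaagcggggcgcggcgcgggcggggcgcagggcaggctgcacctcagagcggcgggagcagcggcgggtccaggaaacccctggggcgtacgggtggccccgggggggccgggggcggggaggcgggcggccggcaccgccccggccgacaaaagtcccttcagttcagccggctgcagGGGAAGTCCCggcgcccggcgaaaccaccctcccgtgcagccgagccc
NFKB2: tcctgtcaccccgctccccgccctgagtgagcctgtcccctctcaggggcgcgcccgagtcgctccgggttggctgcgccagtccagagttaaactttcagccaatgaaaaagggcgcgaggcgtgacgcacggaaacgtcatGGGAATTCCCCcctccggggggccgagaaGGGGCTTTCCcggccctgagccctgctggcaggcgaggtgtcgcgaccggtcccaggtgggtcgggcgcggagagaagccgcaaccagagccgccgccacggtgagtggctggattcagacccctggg
NFKBIA: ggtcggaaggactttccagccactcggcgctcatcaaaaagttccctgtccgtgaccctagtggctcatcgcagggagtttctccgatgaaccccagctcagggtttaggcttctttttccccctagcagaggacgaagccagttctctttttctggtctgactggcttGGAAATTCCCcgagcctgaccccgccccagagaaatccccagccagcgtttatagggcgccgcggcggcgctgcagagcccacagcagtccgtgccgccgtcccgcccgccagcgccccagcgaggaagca
The BCL3 match begins 2 bases after the start of this RefSeq transcript, which lies inside the gene body of the deposited table. In NFKB2 overlapping matches begin 107 and 106 bases before the start and another begins 78 bases before it. The NFKBIA match lies on the opposite strand, 81 bases before the start. The third NFKB2 window also held matches, 176 and 21 bases before its start, and its first window held none.

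Stretches of 50 bases around the match are shown for 4 further genes because the same 10 bases recur in them. These are NFKB1 (chr4:102501290-102501339), REL (chr2:60881507-60881556), NFKBIB (chr19:38899921-38899970) and NFKBIZ (chr3:101827747-101827796), all on the plus strand.
NFKB1: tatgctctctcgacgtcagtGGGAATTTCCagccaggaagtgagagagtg
REL: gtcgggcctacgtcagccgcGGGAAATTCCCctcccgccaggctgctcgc
NFKBIB: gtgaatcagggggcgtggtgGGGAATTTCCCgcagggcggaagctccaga
NFKBIZ: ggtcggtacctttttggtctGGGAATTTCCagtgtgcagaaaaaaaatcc
The run GGGAATTTCC, on one strand or the other, was present in windows of NFKB1, REL, NFKBIA, NFKBIB and NFKBIZ, 5 of the 8 genes, and in 51 of all 35116 windows (0.145%). This run was picked after the matches were seen. Neither RELA window held a match to the consensus, and RELA fell, while REL and NFKBIB held one and did not pass the test. A match describes letters in these windows and not a bound site, and any link between matches and the changes was not tested.

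Among the subunits, RELA and NFKB1 gave the highest counts. RELA (ENSG00000173039, chromosome 11, 65653596 to 65663094, minus strand, hg38), the transactivating partner of the canonical dimer, stood at 165, 176 and 158 CPM in the control libraries (replicates 1 to 3, as in all lists of values here) and at 111, 112 and 115 CPM in the HSD52_OE libraries. All HSD52_OE libraries were below all control libraries, and the spread within each group was small. This was a log2 fold change of -0.56 ± 0.08 (standard error, edgeR quasi-likelihood adjusted p = 3.80e-05). NFKB1 (ENSG00000109320, chromosome 4, 102501329 to 102617302, plus strand) encodes a precursor that is cut to the DNA-binding partner of RELA and whose uncut form acts as an inhibitor. Its levels were 132, 102 and 103 CPM in control and 65.9, 72.3 and 69.8 CPM in HSD52_OE libraries. Control replicate 1 was the highest library and the groups did not overlap. For NFKB1 the log2 fold change was -0.70 ± 0.10 (edgeR adjusted p = 4.35e-05).

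**Figure D2:**
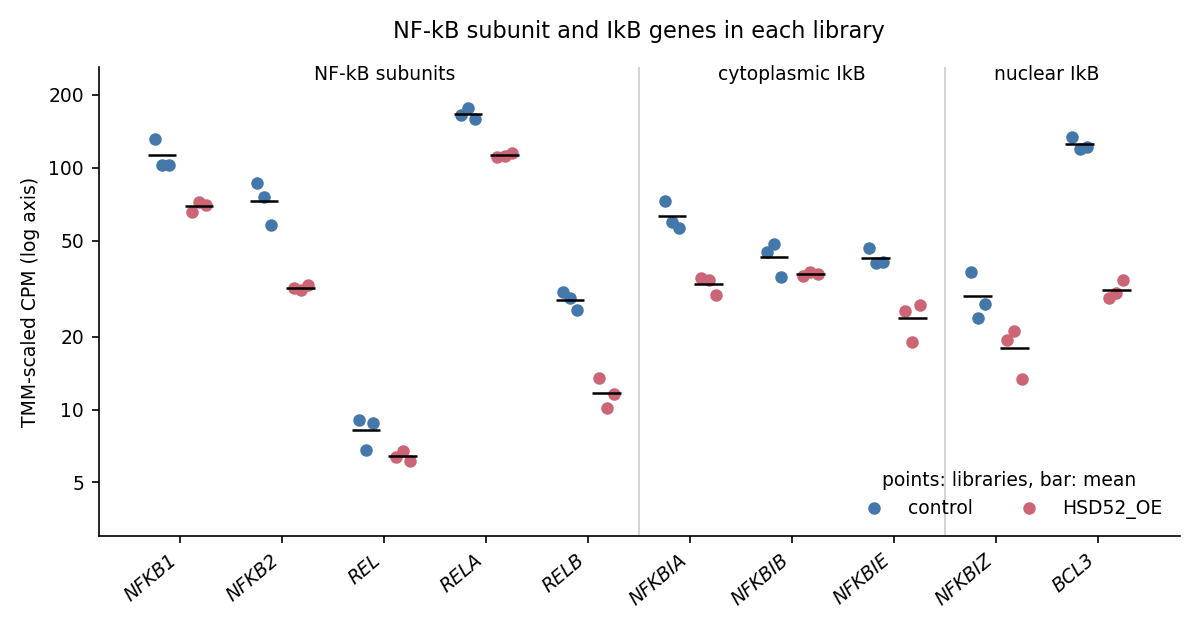
TMM-scaled CPM of the 10 genes on a log axis, with 1 point per library, control in blue and HSD52_OE in red, and the group mean as a bar. The groups overlap for NFKBIB alone, and BCL3 shows the widest gap, from 125 to 31.3 CPM.

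The subunits of the alternative route were lower by a larger fold than those of the canonical dimer. NFKB2 (ENSG00000077150, chromosome 10, 102394110 to 102402529, plus strand), whose precursor both restrains RELB and gives rise to its partner, stood at 86.3, 75.4 and 57.7 CPM in control and 31.8, 31.1 and 32.8 CPM in HSD52_OE libraries. Control libraries ranged widely, HSD52_OE libraries were nearly equal, and the lowest control library was well above all of them. NFKB2 thus had a log2 fold change of -1.20 ± 0.12 (edgeR adjusted p = 1.43e-06). RELB (ENSG00000104856, chromosome 19, 45001430 to 45038198, plus strand) stood at 30.5, 28.8 and 25.8 CPM in control and 13.5, 10.1 and 11.6 CPM in HSD52_OE libraries. Every HSD52_OE library was below every control library. RELB had a log2 fold change of -1.27 ± 0.12 (edgeR adjusted p = 8.95e-07). In the fit of all 6 libraries, the 95% intervals of NFKB2 (-1.45 to -0.94) and RELB (-1.53 to -1.01) do not meet those of NFKB1 (-0.91 to -0.48) and RELA (-0.73 to -0.39). The gap between NFKB2 and NFKB1 is narrow. Leaving out any HSD52_OE library raised their standard errors to 0.15 and to 0.12 to 0.13, and intervals were not compared there. Over the 15 alternatives the estimates ran from -1.35 to -1.07 for NFKB2 and from -0.77 to -0.57 for NFKB1. The ratio of NFKB2 to NFKB1 in CPM per kb, CPM divided by gene length, went from 0.913, 1.03 and 0.782 in control to 0.673, 0.601 and 0.655 in HSD52_OE libraries, and that of RELB to RELA from 0.333, 0.294 and 0.293 to 0.218, 0.163 and 0.182. Neither ratio overlapped between the groups, and no test was made of them.

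REL (ENSG00000162924, chromosome 2, 60881521 to 60931610, plus strand), the subunit best known from lymphocytes, was the lowest of the 10 genes. It stood at 9.05, 6.83 and 8.82 CPM in control and 6.35, 6.76 and 6.14 CPM in HSD52_OE libraries. Control replicate 2 was only just above the HSD52_OE libraries. Its log2 fold change of -0.36 ± 0.15 had an edgeR adjusted p = 0.0634, with a 95% interval of -0.69 to -0.03. Without control replicate 2 it was -0.48 (edgeR adjusted p = 0.0160). Over all 15 alternatives its adjusted p ranged from 0.0160 to 0.228.

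The cytoplasmic inhibitors did not move alike. NFKBIA (ENSG00000100906, chromosome 14, 35401511 to 35404749, minus strand) encodes IkB-alpha, which is destroyed and remade within each round of signalling. It stood at 72.8, 59.7 and 56.6 CPM in control and 34.98, 34.3 and 29.7 CPM in HSD52_OE libraries, with no overlap. NFKBIA had a log2 fold change of -0.93 ± 0.11 (edgeR adjusted p = 5.08e-06). NFKBIE (ENSG00000146232, chromosome 6, 44258166 to 44265788, minus strand), which encodes IkB-epsilon, stood at 46.5, 40.2 and 40.6 CPM in control and 25.7, 19.1 and 27.1 CPM in HSD52_OE libraries. HSD52_OE replicate 2 was the lowest, and all control libraries were above all HSD52_OE libraries. NFKBIE had a log2 fold change of -0.83 ± 0.12 (edgeR adjusted p = 5.48e-05).

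NFKBIB (ENSG00000104825, chromosome 19, 38899700 to 38908893, plus strand), which encodes IkB-beta, stood at 44.8, 48.5 and 35.2 CPM in control and 35.5, 37.1 and 36.3 CPM in HSD52_OE libraries. Control replicate 3 lay below all HSD52_OE libraries, so the groups overlapped. Its log2 fold change was -0.24 ± 0.11 (95% interval -0.47 to -0.0050, edgeR adjusted p = 0.0825). Without control replicate 3 it was -0.37 (edgeR adjusted p = 0.00198), and over all 15 alternatives its adjusted p ranged from that value to 0.398. The intervals of NFKBIA (-1.16 to -0.71) and NFKBIE (-1.08 to -0.57) lie wholly below that of NFKBIB. The ratio of NFKBIA to NFKBIB in CPM per kb was 1.59, 1.21 and 1.58 in control and 0.965, 0.905 and 0.801 in HSD52_OE libraries, with no overlap. The first 163 bases of NFKBIB overlap SIRT2 on the other strand, and SIRT2 itself stood at 56.1 ± 1.98 and 42.2 ± 3.23 CPM. Without strand information, reads of that stretch cannot be told apart.

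Both nuclear IkB genes fell, by unequal amounts. BCL3 (ENSG00000069399, chromosome 19, 44747705 to 44760044, plus strand) encodes a nuclear co-regulator that binds dimers of the processed NFKB1 and NFKB2 products. It stood at 134, 120 and 122 CPM in control and 29.0, 30.3 and 34.5 CPM in HSD52_OE libraries. Both groups were tight and far apart. This was a log2 fold change of -2.004 ± 0.09 (95% interval -2.20 to -1.81, edgeR adjusted p = 6.18e-10), and BCL3 ranked 11 of all 16322 genes by p. Its interval does not meet that of any of the other 9 genes. NFKBIZ (ENSG00000144802, chromosome 3, 101827991 to 101861022, plus strand) encodes IkB-zeta, a nuclear protein needed for secondary response genes such as LCN2 and IL6. It stood at 36.9, 23.9 and 27.4 CPM in control and 19.4, 21.2 and 13.4 CPM in HSD52_OE libraries. The groups did not overlap, but the spread was wide in both. Its log2 fold change was -0.71 ± 0.18 (95% interval -1.10 to -0.31, edgeR adjusted p = 0.00652).

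Gene length was used to set the levels of different genes side by side, as TMM-scaled CPM per kb of the deposited gene length (mean ± SD, n = 3). In control cells BCL3 was the most abundant of the 10 at 38.7 ± 2.38, followed by RELA at 30.5 ± 1.65 and NFKBIA at 26.6 ± 3.63. NFKBIB, NFKB1, NFKBIE and NFKB2 came next at 18.4 ± 2.96, 17.96 ± 2.69, 16.5 ± 1.36 and 16.3 ± 3.21. RELB at 9.35 ± 0.787, NFKBIZ at 4.98 ± 1.14 and REL at 0.625 ± 0.0927 followed. RELA and NFKBIA overlapped across control libraries, and so did the 4 genes from NFKBIB to NFKB2. This order depends on the division by gene length. In CPM, RELA was the highest in control at 167 ± 9.01, above BCL3 at 125 ± 7.70 and NFKB1 at 112 ± 16.9. In HSD52_OE cells the order was RELA at 20.6 ± 0.413, NFKBIB at 15.6 ± 0.350, NFKBIA at 13.9 ± 1.22, NFKB1 at 11.1 ± 0.511, BCL3 at 9.65 ± 0.881, NFKBIE at 9.28 ± 1.66 and NFKB2 at 7.11 ± 0.184. RELB, NFKBIZ and REL were again the lowest at 3.87 ± 0.546, 3.05 ± 0.694 and 0.487 ± 0.0239. The libraries of BCL3 overlapped those of NFKB1 and NFKBIE, and RELB overlapped NFKBIZ.

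The pool of subunit transcripts was smaller and held relatively more RELA in HSD52_OE cells. Summed over the 5 subunits, the level in CPM per kb was 81.3, 75.4 and 67.5 in control and 42.8, 42.9 and 43.9 in HSD52_OE libraries. RELA made up 37.2%, 42.8% and 43.0% of this sum in control and 47.4%, 47.9% and 48.1% in HSD52_OE libraries. NFKB2 made up 21.7% ± 2.36 and 16.5% ± 0.253, and RELB 12.5% ± 0.122 and 8.96% ± 1.29, while the share of NFKB1 overlapped (24.0% ± 2.15 and 25.7% ± 1.18). The 3 cytoplasmic inhibitors summed to 68.0, 61.6 and 54.7 in control and 39.97, 37.8 and 38.6 in HSD52_OE libraries. NFKBIA was the largest of them in control cells (43.2% ± 2.18) and NFKBIB in HSD52_OE cells (40.3% ± 2.00). Inhibitor and subunit sums fell side by side, and their ratio was 0.837, 0.817 and 0.811 in control and 0.933, 0.882 and 0.880 in HSD52_OE libraries. Without division by gene length this ratio was 0.381 ± 0.0071 and 0.402 ± 0.0169. These shares and ratios are descriptions with no test.

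**Figure D3:**
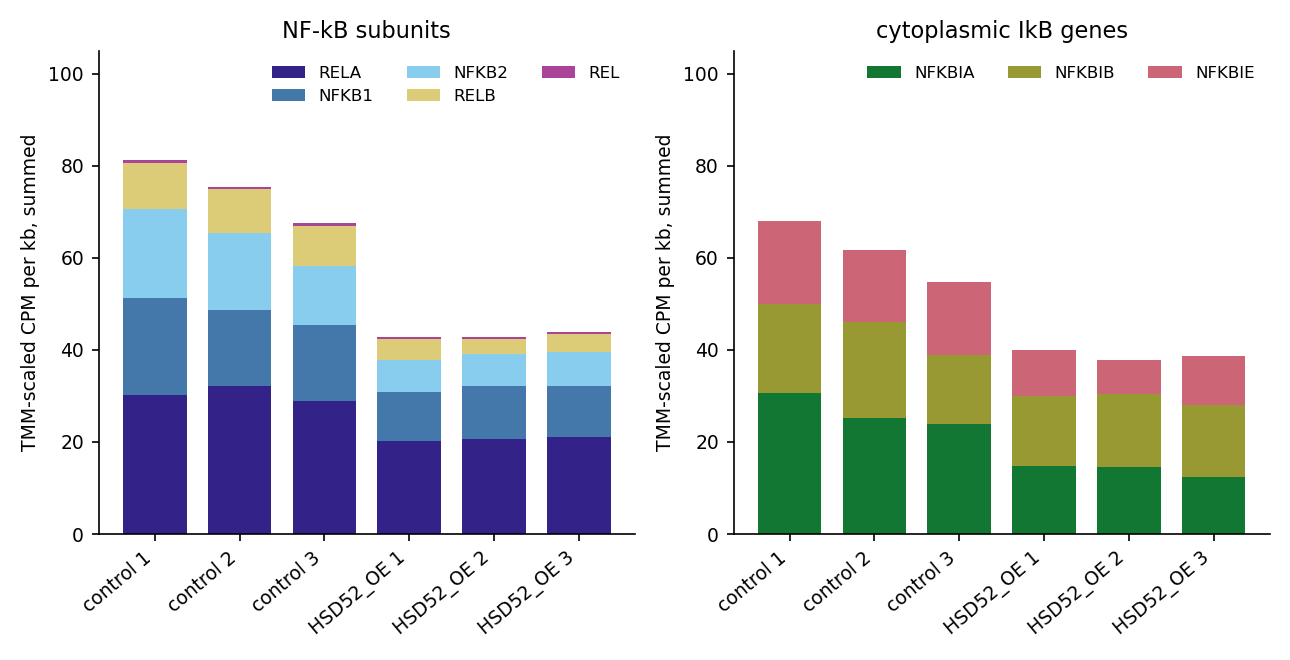
Stacked TMM-scaled CPM per kb of the 5 subunit genes (left) and the 3 cytoplasmic IkB genes (right), with 1 bar per library. Subunit bars end between 67.5 and 81.3 in control and between 42.8 and 43.9 in HSD52_OE libraries.

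The libraries of a group were not equally alike for these genes. The coefficient of variation ran from 5.41% for RELA to 23.0% for NFKBIZ in control and from 2.00% for RELA to 22.7% for NFKBIZ in HSD52_OE libraries, and it was larger in control for 7 of the 10 genes. Control replicate 1 was the highest control library for 8 of the 10 genes, the exceptions being RELA and NFKBIB, whereas 31.9% of the 10789 genes at or above the level of REL were highest in that library. It was also the highest control library for 14 of 23 kappaB target genes. Without control replicate 1, 8 of the 10 genes were still called lower by edgeR, and the log2 fold change of BCL3 was -1.97 and that of NFKBIA -0.83.

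Genes beside the 10 genes were read to see whether whole neighbourhoods shifted. Of 148 tested genes whose start lay within 500 kb, 53 were called lower (35.8%, exact binomial 95% interval 28.1% to 44.1%) and 21 higher (14.2%, 9.003% to 20.9%). Over all genes tested 25.6% were lower and 25.0% higher, both outside these intervals. Among protein-coding genes 30.1% were lower, inside the interval, and 21.4% higher, outside it. Among the 10789 genes at or above the level of REL, 33.3% were lower and 19.5% higher, both inside the intervals. The intervals treat neighbours as independent draws, which genes of shared regions and libraries are not. They therefore cannot decide whether neighbourhoods shifted. BCL3 and RELB lie near each other on chromosome 19. Around RELB, 12 of 22 neighbours were called lower with a median log2 fold change of -0.42. Around BCL3, 8 of 20 were lower with a median of -0.17, and these windows share genes. Around NFKBIA 3 of 10 were higher and the other 7 did not pass. At a fold of at least 2, 10.5% of all genes tested were called higher and 3.49% lower. Of the 148 neighbours 9 were higher and 4 lower at that fold, and 0 of these lay near BCL3. They included the nuclear long non-coding RNAs NEAT1 and MALAT1 beside RELA, at log2 fold changes of 1.90 ± 0.11 and 2.43 ± 0.20, and AF213884.3, an antisense gene that ends just before the start of NFKB1 and fell by 1.62 on the log2 scale. AF213884.3 had a low level (1.68 ± 0.542 and 0.538 ± 0.0985 CPM), and without strand information its value is uncertain. The others that rose were CATSPER1 beside RELA, FOSB beside RELB, AHSA2P beside REL, PSMA6 beside NFKBIA and SARS2, GMFG and AC008982.2 beside NFKBIB, and those that fell were PPP1R13L beside RELB and LRFN1 and LGALS7B beside NFKBIB. Of these, SARS2, GMFG, AC008982.2 and LGALS7B had low levels, with group means of at most 4.21 CPM. FOSB varied widely within groups (7.80 ± 6.21 and 146 ± 74.2 CPM).

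The 3 genes whose levels followed BCL3 most closely over the 6 libraries were DNAAF5, SYNGR2 and PTPN9, with Pearson correlations of log2 CPM of 0.9993, 0.9988 and 0.9985. They were taken from 10147 genes with a mean of at least 10 CPM, of which 1282 had a correlation above 0.95 with BCL3. All 6 points fall into the groups compared, so the correlation contains the difference between groups. DNAAF5, an assembly factor of axonemal dyneins, went from 122 ± 4.30 to 70.4 ± 2.35 CPM.

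Upstream of the subunits, the lists chosen for the pathway held changes in both directions. Of 8 genes of the IKK and TBK1 kinase complexes 2 (IKBKE and TBKBP1) fell, 1 (CHUK) rose and 5 did not pass, which is 25% lower and 12.5% higher, no more than the 25.6% and 25.0% over all genes. Without HSD52_OE replicate 1 and with library totals 0 were lower, and the number lower was 1 without control replicate 2, HSD52_OE replicate 2 or HSD52_OE replicate 3. TBKBP1, a TBK1-binding adaptor, was not called in 9 of 15 alternatives. IKBKB, the catalytic kinase of the canonical route, stood at 41.2 ± 1.56 and 39.0 ± 1.65 CPM (log2 fold change -0.08, 95% interval -0.27 to 0.11). Its partner CHUK rose from 42.0 ± 3.20 to 49.1 ± 1.87 CPM (edgeR adjusted p = 0.0458), a call that 8 of 15 alternatives did not make, with adjusted p-values from 0.00560 to 0.184. For CHUK the edgeR adjusted p was 0.0707 and 0.125 without control replicates 1 and 2, and 0.0870, 0.147 and 0.164 without HSD52_OE replicates 1, 2 and 3. IKBKE, an IKK-related kinase, fell from 22.9 ± 1.76 to 17.9 ± 0.784 CPM (edgeR adjusted p = 0.0100), with 0.0767 under library totals and 0.0532 without HSD52_OE replicate 1. IKBKG stood at 17.3 ± 3.31 and 14.3 ± 1.66 CPM and did not pass (edgeR adjusted p = 0.113), though 2 of 15 alternatives called it lower. Of the 5 genes of the ubiquitin ligase that marks IkB, BTRC, 1 of the subunits that recognise phosphorylated IkB, fell by 0.43 on the log2 scale. Its level went from 20.9 ± 1.05 to 15.5 ± 0.340 CPM, and the other 4 genes did not pass. Among these, FBXW11 was more abundant than BTRC, at 142 ± 10.6 and 137 ± 1.47 CPM. SKP1 stood at 198 ± 24.6 and 179 ± 11.6 CPM, and 1 of 15 alternatives called it lower.

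**Figure D4:**
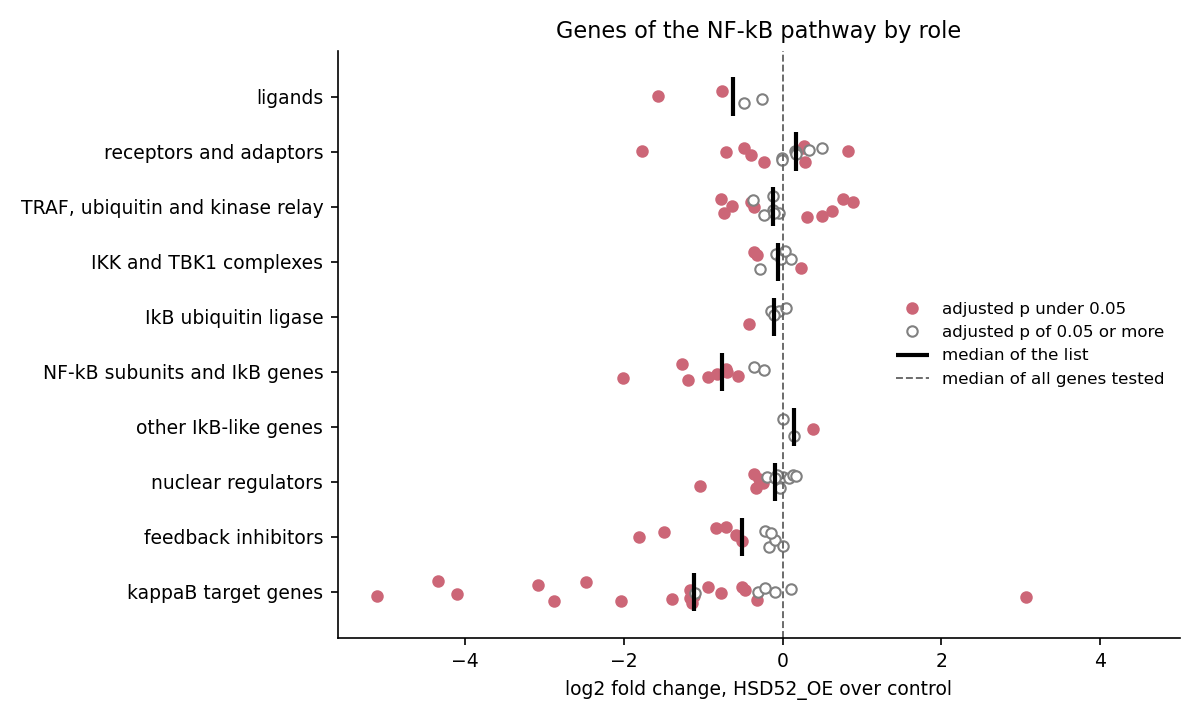
Log2 fold change, HSD52_OE over control, of each tested gene of the pathway lists, 1 row per role, filled where the adjusted p was under 0.05; the black bar is the median of the list and the dashed line the median of all genes tested. The NF-kB subunit and IkB genes centre at -0.77 and the kappaB target genes at -1.12, while the kinase and adaptor lists lie around 0.

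Among receptors and relay proteins, the shares called were near those over all genes tested (25.6% lower and 25.0% higher). Of 16 tested receptors and proximal adaptors 5 fell, 4 rose and 7 did not pass (median log2 fold change 0.16). The 4 higher became 2, 1 and 2 without HSD52_OE replicates 1, 2 and 3 and 1 with no filter beyond 1 count, and the median was 0.046 without control replicate 2 and 0.080 without control replicate 3. IRAK2, a kinase of interleukin-1 and Toll-like receptor signalling, fell from 9.50 ± 2.36 to 2.79 ± 0.210 CPM. TRADD, the adaptor of the TNF receptor, fell by 0.72 and IL1R1, the interleukin-1 receptor, by 0.48 on the log2 scale. TLR4, a receptor for bacterial lipopolysaccharide, rose from 40.1 ± 0.924 to 70.8 ± 1.91 CPM. Of 16 genes of the TRAF, ubiquitin and kinase relay 5 fell and 5 rose (median -0.12, from -0.17 to 0.0037 over the alternatives). TRAF2 and TRAF3, which hold back the alternative route by turning over its kinase, fell by 0.73 and 0.78 on the log2 scale. RBCK1, of the linear ubiquitin ligase, fell by 0.64 on that scale, and XIAP, an inhibitor of apoptosis, rose from 55.3 ± 1.57 to 93.6 ± 1.50 CPM. MAP3K14, the kinase of the alternative route, stood at 12.9 ± 2.96 and 9.99 ± 0.591 CPM and did not pass (edgeR adjusted p = 0.0552).

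Few ligands were expressed. Of 11 listed 4 were tested, of which 2 fell and 0 rose by edgeR's quasi-likelihood test. Of all genes tested 25.6% fell and 25.0% rose, and with 4 genes these counts say little. The count of ligands higher was also 0 at an unadjusted p under 0.05 and by DESeq2 and limma-voom. With no filter beyond 1 count 9 were tested, of which 3 were called lower and 1 higher. IL1A, a cytokine that acts through IL1R1, fell from 6.86 ± 2.50 to 2.31 ± 0.332 CPM and TNFSF12, the ligand TWEAK, from 8.78 ± 1.27 to 5.16 ± 0.638 CPM. IL1B stood at 1.45 ± 0.454 and 1.03 ± 0.435 CPM and did not pass. TNFSF13B, at 0.607 ± 0.0365 and 0.505 ± 0.0426 CPM, did not pass either. TNF had 7, 1 and 2 counts in control and 0, 1 and 0 in HSD52_OE libraries, below the count filter.

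Among feedback inhibitors of the pathway, of 11 tested, 6 fell and 0 rose by edgeR, where 25.6% of all genes fell and 25.0% rose. At an unadjusted p under 0.05 the counts were 7 and 0 (DESeq2 and limma-voom called 6 and 0). The median log2 fold change was -0.52, and -0.27 without control replicate 1. The number lower was 5 without control replicate 1, without HSD52_OE replicate 3, with library totals and with sample quality weights, and 8 without control replicate 2. ZC3H12A, an RNase that destroys inflammatory transcripts, stood at 42.6, 30.6 and 29.6 CPM in control and 12.5, 11.5 and 12.5 CPM in HSD52_OE libraries (log2 fold change -1.49 ± 0.14, edgeR adjusted p = 5.25e-07). TNIP1 and TNIP2, ubiquitin-binding partners of A20, fell by 0.83 and 0.59, and the related TNIP3 by 1.81 on the log2 scale from a low level of 2.64 ± 1.05 CPM. TNFAIP3, the gene of A20 itself, fell less, from 17.2 ± 5.05 to 12.0 ± 1.86 CPM (edgeR adjusted p = 0.0274). Its levels were 22.9, 13.3 and 15.3 CPM in control and 12.9, 13.2 and 9.85 CPM in HSD52_OE libraries. Control replicate 1 was far the highest, and control replicate 2 was only just above HSD52_OE replicate 2. CYLD, a deubiquitinase, stood at 33.0 ± 3.25 and 28.3 ± 0.849 CPM and did not pass (edgeR adjusted p = 0.0741).

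Of 13 nuclear regulators 5 fell and 0 rose by edgeR, where 25.6% of all genes fell and 25.0% rose. Among the 10789 genes at or above the level of REL, 33.3% fell and 19.5% rose. The counts of the 13 regulators were the same at an unadjusted p and by DESeq2 and limma-voom. The split was 2 lower and 2 higher with library totals, 3 and 1 with protein-coding genes alone, and 5 and 1 with sample quality weights and without control replicate 3. Leaving out control replicate 2, HSD52_OE replicate 1 or HSD52_OE replicate 2 gave 3 lower. The median log2 fold change of this list was -0.10 and turned to 0.031 with library totals. PPP1R13L, an inhibitor of RELA that lies near RELB on chromosome 19, fell from 17.1 ± 2.98 to 8.28 ± 0.131 CPM. HDAC3 and AKIRIN1 fell by 0.36 and 0.33 on the log2 scale, and AKIRIN1 had an adjusted p = 0.0543 under library totals. HDAC1 fell by 0.25 on that scale, and its edgeR adjusted p of 0.0283 was above the threshold in 5 of 15 alternatives, with a range of 0.00594 to 0.245. Leaving out 1 library gave HDAC1 an adjusted p of 0.0597 (control replicate 2), 0.158 (HSD52_OE replicate 1) and 0.111 (HSD52_OE replicate 2). Of 3 further IkB-like genes, NFKBID, another nuclear IkB protein, stood at 5.17 ± 0.722 and 5.70 ± 1.15 CPM and did not pass. IKBIP, an IKK-interacting protein, rose from 46.7 ± 1.45 to 60.9 ± 0.849 CPM.

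Of 34 kappaB target genes 23 were tested, of which 17 fell, 1 rose and 5 did not pass, where 25.6% of all genes fell and 25.0% rose. Their median log2 fold change was -1.12. Some of these genes were already known to be lower in these libraries, so the count is not independent evidence. The chemokine CXCL1 stood at 111, 61.1 and 70.5 CPM in control and 8.34, 10.5 and 9.75 CPM in HSD52_OE libraries. ICAM1, an adhesion molecule, stood at 289, 168 and 137 CPM in control and 76.1, 72.2 and 78.8 CPM in HSD52_OE libraries. Both were highest in control replicate 1, and neither overlapped between the groups. The further chemokines CCL2 and CXCL8 fell by 2.88 and 2.04 on the log2 scale. The complement gene C3 fell by 4.34, and SAA1 and CCL20, which had low counts, fell by 5.11 and 1.17 on that scale. CD83 and BCL2A1, an anti-apoptotic gene, fell by 1.14 and 1.12 on the log2 scale, CXCL3 fell by 1.16, and BIRC3, another inhibitor of apoptosis, fell by 2.48 from 2.92 ± 0.880 CPM.

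LCN2, an iron-binding protein that depends on IkB-zeta, stood at 438, 61.9 and 328 CPM in control and 14.96, 13.8 and 19.5 CPM in HSD52_OE libraries. Its control libraries differed widely, though all were above the HSD52_OE libraries. Its edgeR adjusted p of 0.0209 rose to 0.0517 when control replicate 1 was left out and to 0.0562 for control replicate 3. It rose to 0.0835, 0.0855 and 0.0746 when HSD52_OE replicates 1, 2 and 3 were left out in turn, and over all alternatives its lowest value was 1.39e-07. IL6 was barely detected (0.647 ± 0.295 and 0.299 ± 0.220 CPM) and did not pass, nor did PTGS2, LIF, CFLAR and BCL2L1. TRAF1, an adaptor and classical target, was the exception that rose, from 15.5, 13.1 and 16.9 CPM to 114, 134 and 134 CPM.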

How the data were processed

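RNA sequencing counts of 6 LN229 libraries were used. The deposited values are raw read counts per gene, not normalized by the authors. The submitters' processing notes name CASAVA, HISAT2 2.0.5, featureCounts 1.5.0-p3 and the hg38 build. The sources used here do not give the annotation release, strand setting or filters. Gene lengths, in bases, and gene positions are those of the deposited table. Per the labels' protocols, libraries hold polyadenylated RNA.

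Genes were filtered with filterByExpr, scaled by TMM and tested on group by the robust quasi-likelihood method of edgeR 4.0.16 (2-sided, in R 4.3.3 with limma 3.58.1). P-values were adjusted by Benjamini-Hochberg across every gene tested. Values after ± are SDs of CPM or standard errors of log2 fold changes. Alternatives were RLE factors, library totals, other filters (none beyond 1 count, or 1 CPM in 3 libraries), DESeq2 1.42.0, limma-voom with and without sample weights, protein-coding genes alone, a replicate block and leaving out each library. The steps were tested on simulated counts. Intervals cover counting error and the spread between libraries only.

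The 10 genes and the 9 pathway lists were chosen with earlier results of these data known. Genes named were the 10, HSD52, the 4 of each list with the smallest p, listed genes and neighbours within 500 kb past the threshold with a fold of at least 2, and the 3 genes most like BCL3; list genes named outside this rule (IKBKB, MAP3K14, NFKBID, TNFAIP3, CYLD, IL6, TNF, PTGS2, LIF, CFLAR, BCL2L1) were picked for their role, with values seen. Protein sequences were not used here.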

Additional observations from a re-analysis of the deposited data

How the results depend on the processing

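The 10 genes kept the sign of their log2 fold change under all 15 alternatives, and the 8 called genes kept their call in each. The count of the 10 called lower was 8 or 9 and that called higher 0. The call of NFKBIB was gained with no filter beyond 1 count (-0.28, adjusted p = 0.0300) and under limma-voom with sample quality weights (-0.28, 0.0301). Leaving out 1 library at a time gave log2 fold changes of -0.37 to -0.15 for NFKBIB and -0.48 to -0.30 for REL, with REL called without control replicate 2 and NFKBIB without control replicate 3. Without division by gene length the RELA share of the subunits in HSD52_OE was 48.6% against 47.8%, and the ratio of inhibitor to subunit sums was 0.381 in control and 0.402 in HSD52_OE, against 0.822 and 0.899. Neighbour shares stayed within their binomial intervals with windows of 200 and 1000 kb.

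The replicate numbers are not said to pair libraries, and deviations from the group means correlated by 0.0497, 0.0217 and 0.0406 between libraries of the same number. Each library correlated best with its own number, a hint from the data and not from the design. With the replicate block, 4210 genes were higher and 4226 lower, 8 of the 10 genes were lower, and LCN2 (adjusted p = 0.0626) and CHUK (0.0529) lost their call.

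Among the other named genes, direction turned for genes that did not pass. CUL1 was at a log2 fold change of 0.012 and FBXW11 at 0.077 with library totals, and FBXW11 at 0.011 with protein-coding genes alone. NFKBIL1 was at -0.030 with no filter and at -0.035 with sample weights. Leaving out 1 library gave NFKBID -0.033 to 0.24 and NFKBIL1 -0.11 to 0.10. TBKBP1, called lower (adjusted p = 0.0389), was not called in 9 of 15 alternatives, with a range of 0.00274 to 0.187, and leaving out any library other than control replicate 3 was among these 9 (0.0660 to 0.165). Genes with few counts, such as TNF, were below the filter of the reported test.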
